A study of Mus musculus with 6 samples.

Results

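The genes described here encode the enzymes of serine synthesis, of the folate cycle that carries single-carbon units, of purine and pyrimidine synthesis, and of nucleotide salvage. They were chosen as a list of 36 named genes by their place in these pathways, and every probe that the array annotation gives to one of them was used. The deposited table held 73 probes for 34 of the 36 genes, among 45281 probes and 19057 named genes in all. The annotation named no probe for Impdh2 or Mthfd1l, so their RNA was not analysed here, though their start regions were counted. RNA came from splenic follicular B cells, mature B cells selected here with an antibody to CD23, of 3 C57BL/6 mice carrying 2 floxed copies of Yy1 (yy1 fl/fl), a gene for a zinc finger transcription factor. The cells of each spleen were divided, 1 part receiving a mock treatment and the other TAT-CRE, a Cre recombinase protein joined to a peptide that enters cells. Both parts were then grown for 72 hours with lipopolysaccharide, interleukin 4, OPI and serum, a stimulus under which B cells divide and switch antibody class. The 6 Illumina arrays thus form 3 pairs, 1 mock and 1 TAT-CRE array per mouse. All cells carried the floxed gene, and no ages were given. No cells without floxed Yy1 received TAT-CRE in the samples used here, so effects of the recombinase and of losing Yy1 cannot be told apart.

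Dividing lymphocytes need nucleotides for RNA and DNA, and some of the carbon for them comes from serine. Serine is made from a glycolytic intermediate by the products of Phgdh, Psat1 and Psph, and serine hydroxymethyltransferases pass a carbon of it to tetrahydrofolate, in the cytosol (Shmt1) or in mitochondria (Shmt2). In activated lymphocytes the mitochondrial arm, with Mthfd2 and Mthfd1l, exports formate to the cytosol, where Mthfd1 returns it to folate for purine and thymidylate synthesis. The transcription factors ATF4 and MYC are known activators of many of these genes, and E2F factors of genes for deoxynucleotide supply.

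Shmt2, Mthfd2, Gart and Tk1 were the genes with several tested probes that were all called lower in TAT-CRE cells, and the start regions of these 4 genes are shown for that reason. Each runs 5′ to 3′ along the gene, from 250 bases before the annotated start site to 50 bases from it on, as RefSeq gives them on GRCm38.p6. All 4 genes lie on the minus strand, Shmt2 at chr10:127522395-127522694, Mthfd2 at chr6:83317555-83317854, Gart at chr16:91646923-91647222 and Tk1 at chr11:117825965-117826264. Capitals mark matches on either strand to 4 motifs, namely the E-box CACGTG bound by MYC, the core TGATGNA of the element bound by ATF4, the YY1 core AANATGG and the E2F core GGCGGGA.
Shmt2: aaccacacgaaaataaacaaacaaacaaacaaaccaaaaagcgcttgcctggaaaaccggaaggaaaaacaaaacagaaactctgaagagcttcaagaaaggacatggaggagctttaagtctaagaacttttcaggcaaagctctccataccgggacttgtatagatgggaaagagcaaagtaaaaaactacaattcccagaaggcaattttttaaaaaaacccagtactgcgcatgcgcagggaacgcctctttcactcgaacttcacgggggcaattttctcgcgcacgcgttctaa
Mthfd2: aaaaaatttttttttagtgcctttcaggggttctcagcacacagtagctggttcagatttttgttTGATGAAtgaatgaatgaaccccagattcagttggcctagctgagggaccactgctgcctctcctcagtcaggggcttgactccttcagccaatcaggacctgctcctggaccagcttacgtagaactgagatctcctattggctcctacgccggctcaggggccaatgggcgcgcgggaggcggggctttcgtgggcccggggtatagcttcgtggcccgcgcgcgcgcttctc
Gart: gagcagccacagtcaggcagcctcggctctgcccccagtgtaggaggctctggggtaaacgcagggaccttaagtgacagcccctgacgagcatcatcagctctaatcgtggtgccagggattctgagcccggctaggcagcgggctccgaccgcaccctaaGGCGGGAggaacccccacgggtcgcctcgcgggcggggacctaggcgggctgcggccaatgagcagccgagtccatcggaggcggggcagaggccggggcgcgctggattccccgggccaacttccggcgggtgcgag
Tk1: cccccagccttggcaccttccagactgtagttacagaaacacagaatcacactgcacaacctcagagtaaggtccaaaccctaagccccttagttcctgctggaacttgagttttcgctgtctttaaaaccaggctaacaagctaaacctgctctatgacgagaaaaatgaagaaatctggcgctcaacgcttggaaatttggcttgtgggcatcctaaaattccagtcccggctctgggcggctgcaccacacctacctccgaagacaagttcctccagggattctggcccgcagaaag
The Mthfd2 window held 1 ATF4 core, starting 185 bases before the start site. The Gart window held 1 E2F core, 88 bases before it, and the Shmt2 and Tk1 windows held no match to any of the 4. No match overlapped another in these windows. Over 39 start regions of the 33 listed genes in the table, the E2F core was present in 15, the E-box in 6, the YY1 core in 5 and the ATF4 core in 2. Of all 32851 start regions, 11.3% held the E2F core, 7.15% the E-box, 16.1% the YY1 core and 12.2% the ATF4 core. Median G+C content was 61% in the 39 windows and 52.7% in all, and its part in these shares was not tested.

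Each array gave a brightness per probe, which the authors had normalized between arrays, and between 39.9% and 44.5% of probes per array lay above a background threshold. A probe was tested when it was above that threshold on at least 3 of the 6 arrays. Log2 values correlated across probes at 0.974 to 0.983 among mock, 0.989 to 0.990 among TAT-CRE and 0.964 to 0.975 between mock and TAT-CRE arrays, and the median SD per probe was 0.23 in mock and 0.15 in TAT-CRE. Precision is limited by having 3 arrays per group. The Yy1 probe read 455, 408.9 and 439.2 in mock 1, 2 and 3 and 153.2, 140.4 and 133.8 in TAT-CRE 1, 2 and 3, where all 3 values were under the threshold. With the dim values set at background, Yy1 was at least 2.49-fold lower, a bound that was not itself tested. The limma test, on background-corrected log2 values, gave a difference of -2.80 (adjusted p = 1.80e-07). The sources used here do not place this probe relative to the deleted part. Of the B cell markers with a tested probe, Cd79b, Ms4a1, Cd22 and Cd37 were above background on every array at their tested probes and did not pass. Fcer2a, the gene for CD23, had 3 tested probes, of which 1 passed as lower, by 0.58 on the log2 scale (adjusted p = 0.0465), and 2 did not. That call was lost without the mouse in the model and when any mouse was left out (adjusted p = 0.0547 to 0.261). Of the markers of other cells, 1 of 9 T cell, 2 of 10 monocyte and macrophage, 0 of 6 natural killer, 1 of 3 neutrophil and 5 of 6 erythroid probes were bright enough to test, and none passed. Of the plasma cell markers Jchain, the joining chain of secreted antibody, rose by 0.64 (adjusted p = 0.0383), a call lost without mouse 3 (0.411), without mock 1 or 3 (0.0529 and 0.125) and without any TAT-CRE array (0.0503 to 0.173). The other plasma cell markers gave no call. Xbp1 differed by 0.16 and the tested Prdm1 probe by -0.14 (adjusted p = 0.616 and 0.666), and no Sdc1 probe was bright enough to test. The part of these markers in the results below was not tested.

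Many of these genes read lower after TAT-CRE than after mock treatment, and the folate genes of mitochondria held the most falls. Of the 59 tested probes, which stood for 32 genes, 14 fell and 1 rose past an adjusted p of 0.05 in a paired limma fit with the mouse as a block. Among all 19240 tested probes 7.14% were called lower and 6.55% higher. Counted by gene, 9 of 32 had a probe called lower and 1 a probe called higher, against 9.77% and 8.80% of 9942 genes in all. In a fit with 1 probe per gene, that of highest mean, and p-values adjusted over 9942 genes, 9 of the 32 were again called lower, against 8.92% of all genes, but only 7 of them were the same. Shmt1 and Umps dropped out, since their brightest probes were not called, and Adsl and Phgdh passed under that adjustment (adjusted p = 0.0348 and 0.0377). The listed genes had 1.84 tested probes per gene against 1.58 over all named genes, and were brighter, with a median intensity of 982 against 407. The median log2 difference was -0.31 over the 59 probes and 0.01 over all tested probes, and 46 of the 59 lay below 0, against 49.4% of all. The 3 TAT-CRE intensities all lay below the 3 mock ones at 24 of the 59 probes, against a background of 15.5%, and above them at 4, against 16.4%. The 15 called probes moved the same way in all 3 mice, the mice from which they were called. In these bulk samples, fewer cells of a kind and less RNA per cell cannot be told apart. Leaving out TAT-CRE 1 reduced the probes called lower to 8 and leaving out TAT-CRE 2 to 9.

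**Figure D1:**
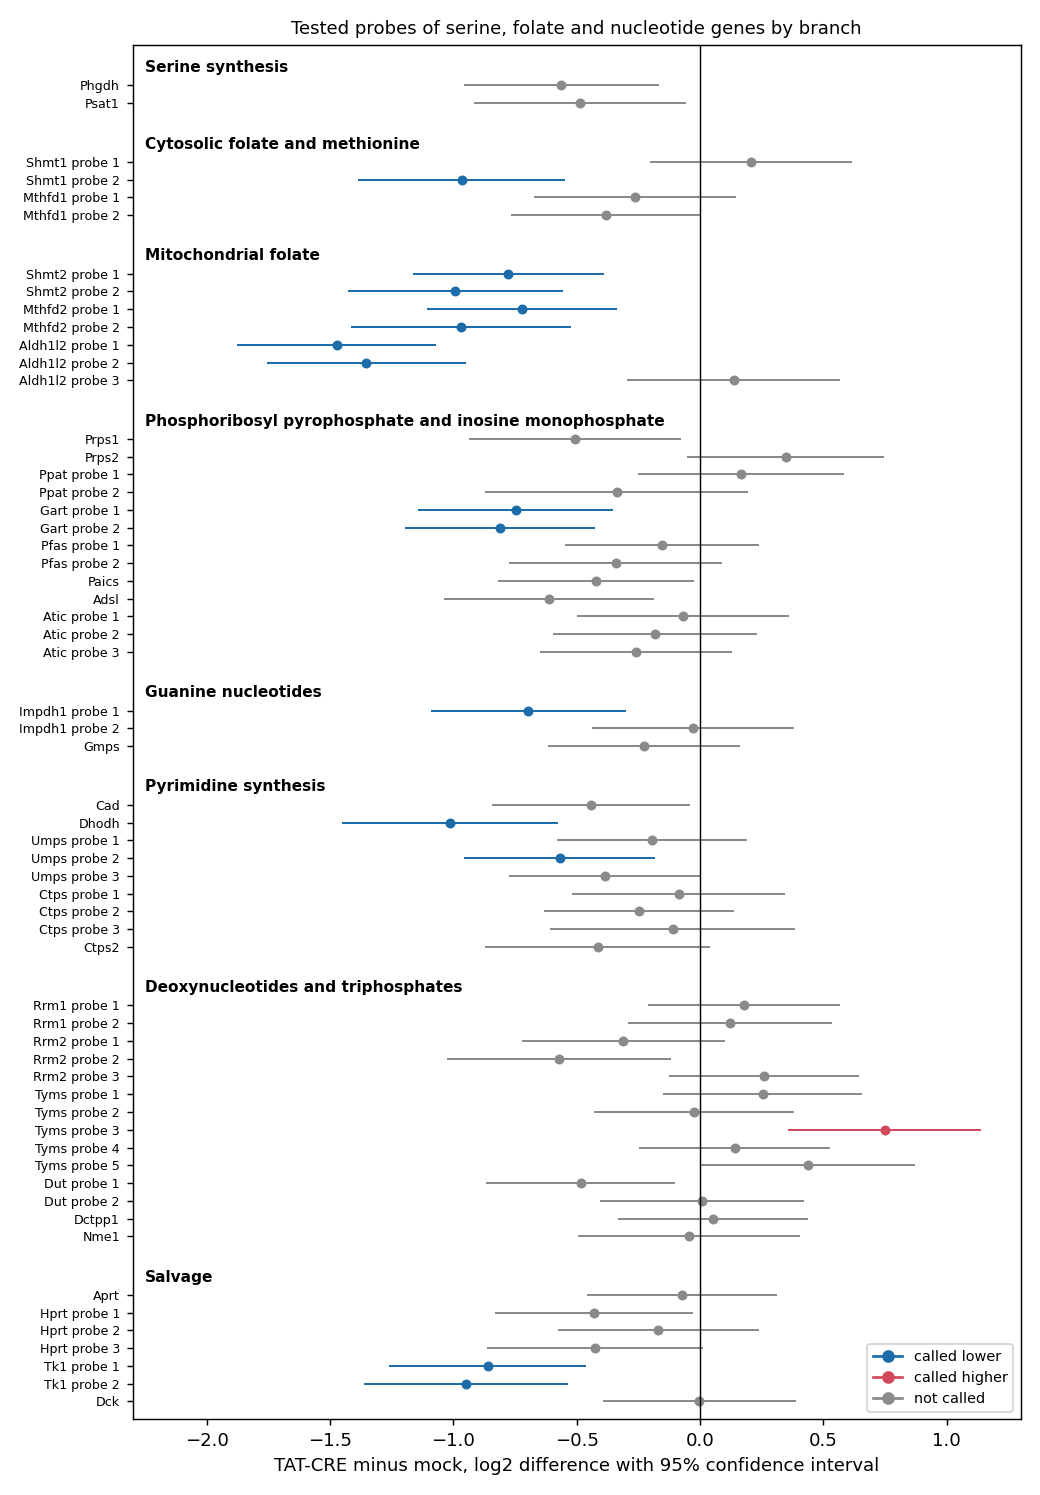
Fitted log2 difference, TAT-CRE minus mock, with its 95% confidence interval for each of the 59 tested probes, grouped by branch; probes of a gene are numbered from the brightest. The called falls (blue) include 6 of 7 mitochondrial folate probes. No deoxynucleotide probe of 14 is called lower and 1 Tyms probe is called higher (red), against 7.14% and 6.55% of all tested probes.

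Mitochondrial folate genes held 6 of the 14 probes that fell, out of 7 tested, against 7.14% of all tested probes called lower. Each of the 3 measured genes had at least 2. Among them, a probe each of Aldh1l2 and Shmt2 was above background on 3 mock arrays but 1 TAT-CRE array. Those probes met the filter mainly through the group where they were higher. Aldh1l2, which oxidises 10-formyltetrahydrofolate to carbon dioxide in mitochondria, fell most. Its brightest probe read 627.5, 517.5 and 590.1 in mock 1, 2 and 3 and 250.2, 283.1 and 269.1 in TAT-CRE 1, 2 and 3. The highest TAT-CRE value was thus well under the lowest mock value. The fall was 1.47 on the log2 scale, a 2.78-fold difference (95% confidence interval -1.87 to -1.07, limma adjusted p = 6.74e-05). A second probe read 313.3, 264.0 and 273.2 in mock and 162.1, 162.5 and 177.5 in TAT-CRE cells, and passed the threshold on 1 TAT-CRE array. It fell by 1.35 (adjusted p = 0.000152), and by 0.76 on the authors' values without background correction. The dimmest Aldh1l2 probe overlapped between the groups, at 165.7 to 211.7 in mock and 184.8 to 203.0 in TAT-CRE cells, with a difference of 0.14 (adjusted p = 0.718). The annotation assigns it to another transcript record than the other two.

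Shmt2, the mitochondrial serine hydroxymethyltransferase that starts this arm, fell at both of its probes. The brighter read 2257, 2230 and 2780.6 in mock 1, 2 and 3 and 1462.2, 1383.1 and 1493.8 in TAT-CRE cells. The TAT-CRE values lay close together, and all were below the mock range. The log2 difference was -0.78 ± 0.18 (limma's SE, its variance moderated across all tested probes, n = 3 pairs, limma adjusted p = 0.00879), a 1.71-fold fall. The dimmer probe read 211.8, 255.4 and 211.2 in mock and 147.0, 154.8 and 179.7 in TAT-CRE cells, passing the threshold on 1 TAT-CRE array. It fell by 0.99 (adjusted p = 0.00372), and by 0.49 on the authors' values without background correction. The call of the brighter probe was lost without mouse 3 (adjusted p = 0.0981) or TAT-CRE 2 (0.0535), and that of the dimmer without TAT-CRE 1 (0.0522).

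Mthfd2, the dehydrogenase and cyclohydrolase that is abundant in dividing cells and low in most resting tissue, also fell at both probes. The brighter read 9160.9, 8580.9 and 8556.3 in mock 1, 2 and 3 and 5227.7, 5635.1 and 5199.9 in TAT-CRE cells. Neither group spread by more than a small part of the gap between them. The difference was -0.72 ± 0.18 (limma's moderated SE, n = 3 pairs, limma adjusted p = 0.0132), or 1.65-fold. The dimmer probe read 2020.9, 1976.5 and 1459.2 in mock and 913.1, 845.9 and 1164.1 in TAT-CRE cells, a fall of 0.97 (adjusted p = 0.00512). Mouse 3 had the lowest mock and the highest TAT-CRE value there. The brighter probe lost its call without mouse 1 or 3 (adjusted p = 0.0515 and 0.0836) and without TAT-CRE 1 or 3 (0.0515 and 0.0546), while the dimmer kept its call whichever mouse or array was left out.

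**Figure D2:**
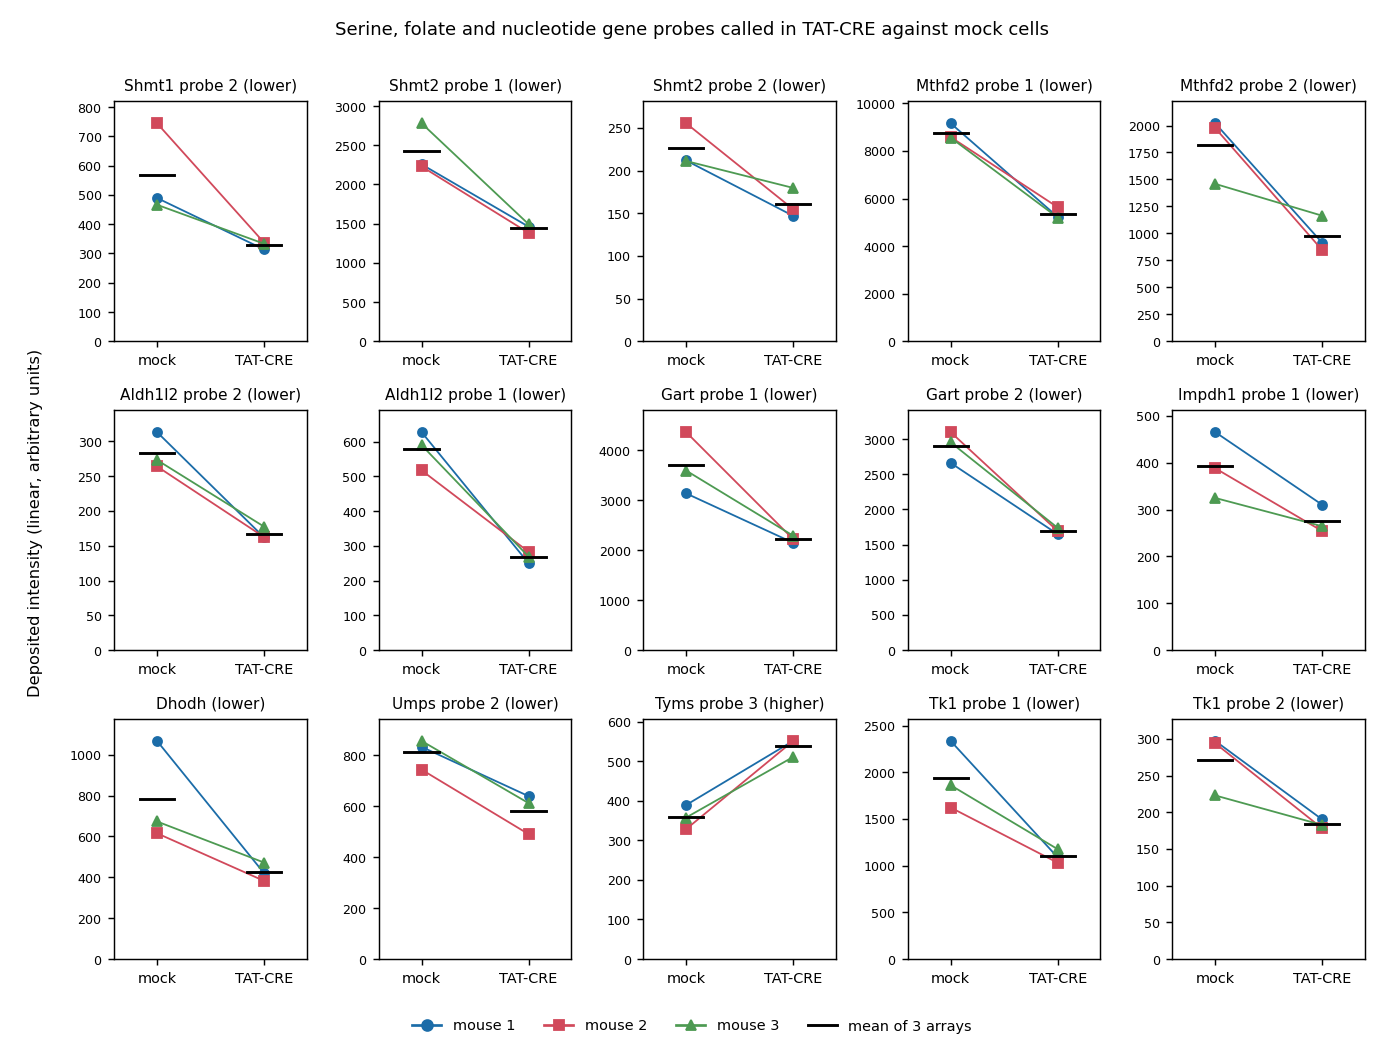
Deposited intensity (linear, axis from 0) of the 15 called probes in mock and TAT-CRE cells, with a line per mouse and a black bar at the mean of 3 arrays. The TAT-CRE values lie below all mock values at 14 probes and above them at 1, a Tyms probe that rose from 358 to 538 on average. The probes were called from these same arrays, so their separation is no further support. Of all tested probes, 15.5% lie wholly below and 16.4% wholly above.

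Serine synthesis upstream of that arm was lower in every mouse without passing the test. Phgdh, which commits 3-phosphoglycerate to serine, read 656.8, 1022.1 and 747.4 in mock 1, 2 and 3 and 520.8, 617.5 and 567.7 in TAT-CRE cells. The groups did not overlap, with mock 2 the highest. Phgdh thus differed by -0.56 (limma adjusted p = 0.0534, 95% confidence interval -0.95 to -0.17). It passed without background correction (adjusted p = 0.0337), with a larger offset of 50 (0.0329), with probes above background on all 6 arrays (0.0411), with a trended robust variance (0.0426) and without mock 1 (0.040). Psat1, the aminotransferase of the next step, read 13147.2, 10443.5 and 10963.9 in mock and 6639.5, 9708.6 and 8585.2 in TAT-CRE cells. The pair differences were -0.36 in mouse 3 and -0.11 in mouse 2, and mouse 1 was the furthest apart, around a mean of -0.49 (adjusted p = 0.125). Psat1 passed without mouse 2 (adjusted p = 0.0314) and with a trended robust variance (0.0441). The probe of Psph, the phosphatase that completes serine, stayed under the threshold on all 6 arrays.

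In the cytosolic folate branch the 2 probes of Shmt1, the cytosolic hydroxymethyltransferase, went apart. The dimmer read 489.4, 744.6 and 466.3 in mock 1, 2 and 3 and 313.8, 337.1 and 333.3 in TAT-CRE cells. The TAT-CRE values were nearly equal, and the groups did not overlap. It fell by 0.96 (SE 0.20, limma adjusted p = 0.00343), with the call lost without TAT-CRE 1 (adjusted p = 0.0509). The brighter probe read 1726.4, 562.6 and 2216.1 in mock and 2102.8, 755.8 and 1973.9 in TAT-CRE cells, a difference of 0.21 (adjusted p = 0.534). On this probe both arrays of mouse 2 lay far below those of the other mice, which the dimmer probe did not show. Mthfd1, whose product interconverts the cytosolic folate forms, differed by -0.26 and -0.38 at its tested probes (adjusted p = 0.408 and 0.182). The probe of Mtr, methionine synthase, was above background on 1 mock and 1 TAT-CRE array and was not tested.

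Purine synthesis starts from phosphoribosyl pyrophosphate and builds inosine monophosphate in steps that Ppat, Gart, Pfas, Paics, Adsl and Atic carry out. Of the 13 tested probes of this branch 2 were called lower, against 7.14% of all tested probes. By gene that was 1 of 8, against 9.77% of all genes with a tested probe. Both called probes were of Gart, a protein with 3 enzyme activities of the early pathway, among them a folate-dependent formyl transfer. Its brighter probe read 3140.2, 4367.6 and 3597.4 in mock 1, 2 and 3 and 2151.9, 2224 and 2293 in TAT-CRE cells. The other read 2662.5, 3100.4 and 2954.4 in mock and 1649.1, 1693.7 and 1739.1 in TAT-CRE cells. Both sets of TAT-CRE values were tight and lay below all mock values. In log2 the falls were 0.75 and 0.81 (SE 0.19 and 0.18, limma adjusted p = 0.0125 and 0.00644). The call of the brighter was lost without mouse 2 or 3 (adjusted p = 0.0546 and 0.0513) or without any TAT-CRE array (0.0532 to 0.0653), and that of the other held in each of those fits.

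Adsl, which acts both on the way to inosine monophosphate and from there to adenine nucleotides, read 2018.7, 2438.9 and 1452 in mock 1, 2 and 3 and 1271.1, 1270.8 and 1335.6 in TAT-CRE cells. The groups did not overlap, though mock 3 came close to TAT-CRE 3. Adsl thus differed by -0.61 (limma adjusted p = 0.0518, 95% confidence interval -1.03 to -0.19), and it passed with an offset of 50 (adjusted p = 0.0283), without background correction (0.0371), with probes above background on all 6 arrays (0.0412), with a trended robust variance (0.0272), without mouse 3 (0.0290) and without mock 3 (0.0222). A second Adsl probe stayed under the threshold on all arrays. Paics, which has 2 activities in mid-pathway, differed by -0.42 (adjusted p = 0.152), and its start region lies beside that of Ppat on the opposite strand. Ppat, the amidotransferase of the committed step, had 1 probe at 0.17 and 1 at -0.34 (adjusted p = 0.632 and 0.421). The dim Ppat probe passed as lower without mouse 1 (-0.83, adjusted p = 0.0107). Pfas differed by -0.15 and -0.34 and the 3 tested probes of Atic, which makes the last 2 steps, by -0.26 to -0.07, none past the threshold.

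The synthetases that supply phosphoribosyl pyrophosphate had opposite signs. Prps1 read 5274.6, 4244 and 6834.4 in mock 1, 2 and 3 and 3555, 4196 and 3653.5 in TAT-CRE cells. Mouse 2 showed almost no difference, and the mean difference was -0.51 (limma adjusted p = 0.109). Without mouse 2 Prps1 passed at -0.75 (adjusted p = 0.0140), and without mock 2 at -0.68 (0.0405). Prps2 read 912, 906 and 1120.3 in mock and 1248.4, 1241.6 and 1156.3 in TAT-CRE cells. It lay above mock in each mouse, with a difference of 0.35 that did not pass (adjusted p = 0.246). The difference between the 2 genes was not tested.

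Of the 2 measured genes for guanine nucleotides, Impdh1, an inosine monophosphate dehydrogenase, fell at 1 of its 2 tested probes. That probe read 465.3, 388.2 and 324.8 in mock 1, 2 and 3 and 310.2, 254.1 and 264.4 in TAT-CRE cells, so the lowest mock and the highest TAT-CRE value were near each other. It fell by 0.69 (limma adjusted p = 0.0188, 95% confidence interval -1.09 to -0.30). The other tested probe, at 223.9 to 303.5 in mock and 236 to 270.1 in TAT-CRE cells, overlapped between the groups and differed by -0.03 (adjusted p = 0.948). The call was lost without mouse 1 or 2 (adjusted p = 0.0602 and 0.0609), without mock 1 or 2 (0.111 and 0.0831) and without any TAT-CRE array (0.0550 to 0.166). Gmps, which aminates xanthosine monophosphate to guanosine monophosphate, differed by -0.23 (adjusted p = 0.461).

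The 5 pyrimidine synthesis genes lay below 0 at all 9 tested probes, and 2 of these were called lower. Among all tested probes 49.4% lay below 0 and 7.14% were called lower. Dhodh encodes the dihydroorotate dehydrogenase of the inner mitochondrial membrane, the only step of this pathway in that organelle. It read 1067.7, 615.5 and 673.3 in mock 1, 2 and 3 and 420.3, 382.6 and 472.3 in TAT-CRE cells. Mock 1 stood above the other mock arrays, and the groups did not overlap. The fall was 1.01 on the log2 scale, or 2.02-fold (95% confidence interval -1.45 to -0.58, limma adjusted p = 0.00330), with the call lost without TAT-CRE 2 (adjusted p = 0.0639). The other Dhodh probes were not above background on any array.

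Umps, which makes uridine monophosphate from orotate, had 3 tested probes, all below 0 in each mouse. One read 833.3, 744 and 856.6 in mock 1, 2 and 3 and 639.7, 490.5 and 612.4 in TAT-CRE cells, and the groups did not overlap. It fell by 0.57 (limma adjusted p = 0.0468), while the others differed by -0.19 and -0.39 (adjusted p = 0.533 and 0.181). The Umps call was lost without the mouse in the model (adjusted p = 0.0559) and when any mouse (0.0714 to 0.202) or any array (0.0534 to 0.243) was left out. Cad, the large enzyme of the first 3 steps, read 1519.6, 1695.6 and 1599.6 in mock and 1289.5, 1035.2 and 1313.4 in TAT-CRE cells. The groups did not overlap, but the difference of -0.44 did not pass (adjusted p = 0.136). The cytidine triphosphate synthases differed by -0.25 to -0.09 at the 3 probes of Ctps and by -0.41 at the tested probe of Ctps2 (adjusted p = 0.225), which passed as lower without mouse 1 (-0.71, adjusted p = 0.0373).

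Deoxynucleotide and triphosphate genes had a median log2 difference of 0.09, while the medians of the other branches lay between -0.97 and -0.23. No probe of 14 was called lower and 1 was called higher, against 7.14% and 6.55% of all tested probes. At an unadjusted p under 0.05, 2 were lower and 2 higher. Tyms, which methylates deoxyuridine monophosphate to thymidine monophosphate with a folate cofactor, had 5 tested probes. One read 389.3, 328.3 and 357.6 in mock 1, 2 and 3 and 551.3, 551 and 510.7 in TAT-CRE cells. The lowest TAT-CRE value was above the highest mock value, and the rise was 0.75 in log2, or 1.68-fold (SE 0.18, limma adjusted p = 0.0114). The call was lost without TAT-CRE 1 or 2 (adjusted p = 0.0544 and 0.0569). The other 4 probes ran from -0.02 to 0.44 (adjusted p = 0.175 to 0.958), and that at 0.44 passed without mouse 2 (0.70, adjusted p = 0.0255). The brightest of them read 4958.5, 6010.6 and 6527.9 in mock and 7394.1, 6686.7 and 6621.3 in TAT-CRE cells, without overlap but with a difference of only 0.25.

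Ribonucleotide reductase, which makes deoxynucleotides from ribonucleotides, gave no call at either subunit. Rrm1, its large subunit, differed by 0.12 and 0.18 (limma adjusted p = 0.743 and 0.578). For Rrm2, the subunit that limits the enzyme in S phase, the brightest probe differed by -0.31, the next by -0.57 and the dimmest by 0.26 (adjusted p = 0.322, 0.0856 and 0.382). The probe at -0.57 read 938.9, 1296.7 and 975.9 in mock 1, 2 and 3 and 842.8, 608.9 and 801.0 in TAT-CRE cells, with mouse 2 the furthest apart at -1.22. It passed as lower without mouse 1 (-0.77, adjusted p = 0.0201). Dut, which clears deoxyuridine triphosphate, had probes at 0.01 and -0.48 (adjusted p = 0.987 and 0.0863), and the second passed without background correction (-0.42, adjusted p = 0.0429). Dctpp1, a pyrophosphatase of deoxycytidine nucleotides, differed by 0.05 (adjusted p = 0.885). Nme1, a nucleoside diphosphate kinase, ranged from 18167.2 to 38940.4 in mock and from 22942.6 to 27183.2 in TAT-CRE cells, a difference of -0.04 (adjusted p = 0.925).

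Among salvage genes the falls were those of Tk1, the cytosolic thymidine kinase, whose RNA rises at the start of DNA synthesis. Its brighter tested probe read 2335, 1621.9 and 1860.7 in mock 1, 2 and 3 and 1088.4, 1030.9 and 1176.1 in TAT-CRE cells. The dimmer read 297.3, 294.1 and 223 in mock and 190.2, 178.1 and 182.7 in TAT-CRE cells. Neither probe overlapped between the groups, and the TAT-CRE values varied less than the mock values. In log2 the falls were 0.86 and 0.95 (SE 0.19 for each, limma adjusted p = 0.00546 and 0.00352), and the second was 0.55 on the authors' values without background correction. Both calls held when any mouse or array was left out, and 2 further Tk1 probes were not above background on any array. Hprt, which salvages hypoxanthine and guanine, differed by -0.43, -0.17 and -0.43 at its 3 probes (adjusted p = 0.146, 0.621 and 0.193), the dimmest of which passed without mouse 2 (-0.70, adjusted p = 0.0244) and without mock 2 (-0.67, adjusted p = 0.0308). Aprt, which salvages adenine, and Dck, the deoxycytidine kinase, differed by -0.07 and -0.00 (adjusted p = 0.844 and 0.997).

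Probes of 1 gene did not always give the same answer. Of 18 genes with several tested probes, 4 had every probe called lower, 5 had some called and others not, and 6 had probes on both sides of 0. The same counts over all genes are not given here, so whether this is usual for the array cannot be told. The positions of the probes along the transcripts are not given in the sources used here, and the brightness of a probe does not rank transcripts by amount. Of the 73 probes, 14 were not tested, 11 of them above background on no array, and 54 were above background on all 6 arrays.

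**Figure D3:**
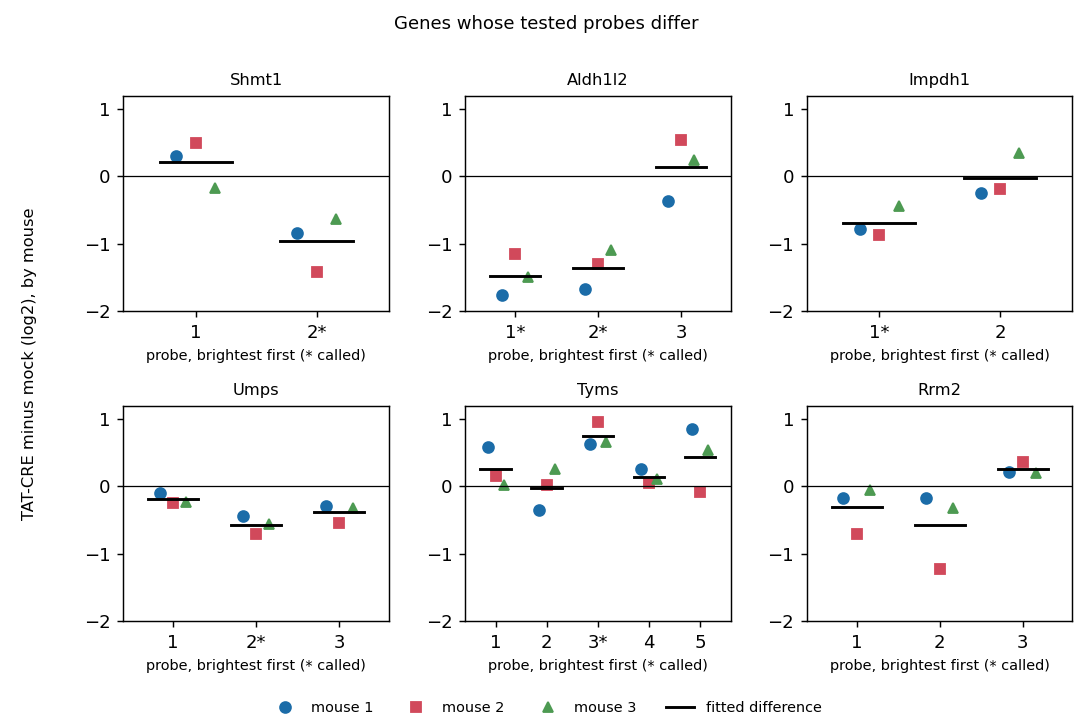
Log2 difference, TAT-CRE minus mock, by mouse (coloured points) and as fitted (black bars) for each tested probe of 6 genes, numbered from the brightest, with called probes starred. Aldh1l2 probes 1 and 2 lie between -1.76 and -1.09 in every mouse while probe 3 lies on both sides of 0, and Shmt1 probes 1 and 2 are fitted at 0.21 and -0.96.

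Other genes of the same pathways were taken from a list of 81, of which 51 had a tested probe. Of these 51, 11 had a probe called lower and 2 a probe called higher, against 9.77% and 8.80% of all genes with a tested probe. Of their 98 probes 17 fell and 4 rose (17.3% and 4.08%), against 7.14% and 6.55% of all tested probes. The median over the 98 was -0.00. Sfxn1, a carrier that brings serine into mitochondria, fell at both probes. The probe with the larger fall read 10981.2, 8206.1 and 9894.5 in mock 1, 2 and 3 and 4082.3, 3108.4 and 3552.4 in TAT-CRE cells. That is a 2.75-fold difference, -1.46 in log2 (SE 0.18, limma adjusted p = 4.55e-05), and the other differed by -1.40 (adjusted p = 0.000185). Slc19a1, the reduced folate carrier of the plasma membrane, read 1011.9, 1234 and 1155.1 in mock and 535.8, 609.8 and 635.9 in TAT-CRE cells, a fall of 1.05 (adjusted p = 0.000873). Slc25a32, the mitochondrial folate carrier, differed by 0.05 (adjusted p = 0.891, chosen after its value was seen).

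The largest fall of that list was in Cth, which makes cysteine from cystathionine, at -1.72 (limma adjusted p = 2.66e-05), and the neutral amino acid transporter Slc1a4 fell by 1.11. Prpsap2, a protein that associates with the phosphoribosyl pyrophosphate synthetases, read 2560.4, 1685 and 1998.6 in mock 1, 2 and 3 and 814.5, 906.1 and 922.5 in TAT-CRE cells. It fell by 1.31 there (adjusted p = 0.000304) and by 0.75 at a dimmer probe (0.0151), the latter call lost without mouse 1 (0.127) or any TAT-CRE array (0.0645 to 0.0762). Uck2, a uridine and cytidine kinase, fell at all 3 of its tested probes, by 0.83 to 1.13. The probe with the largest fall read 1522.2, 1566.1 and 1283.1 in mock and 666.2, 685.3 and 802.1 in TAT-CRE cells (adjusted p = 0.000824). The brightest Uck2 probe lost its call without mouse 1 (adjusted p = 0.106) and without TAT-CRE 1 or 2 (0.0806 and 0.0685). Nme3, a nucleoside diphosphate kinase, read 626.9, 812.2 and 758.4 in mock and 347.9, 310.4 and 322.9 in TAT-CRE cells, a fall of 1.44 (adjusted p = 9.70e-05).

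The rises of the list were in Srr and Ak3. Srr, serine racemase, read 2621.9, 2604.9 and 1646.4 in mock 1, 2 and 3 and 5058, 4057.9 and 4167 in TAT-CRE cells, a rise of 1.01 or 2.01-fold (limma adjusted p = 0.00224). A brighter Srr probe rose by 0.84 (adjusted p = 0.00625, and 0.0942 without mouse 3), and a dim one differed by 0.03 (adjusted p = 0.951). Ak3, an adenylate kinase of the mitochondrial matrix named after its values were seen, rose by 0.80 and 0.85 at its brighter probes (adjusted p = 0.00816 and 0.00440) and differed by 0.14 at the dim one. The first of these Ak3 calls was lost without TAT-CRE 1, TAT-CRE 2 or mock 3 (adjusted p = 0.0538 to 0.0800).

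**Figure D4:**
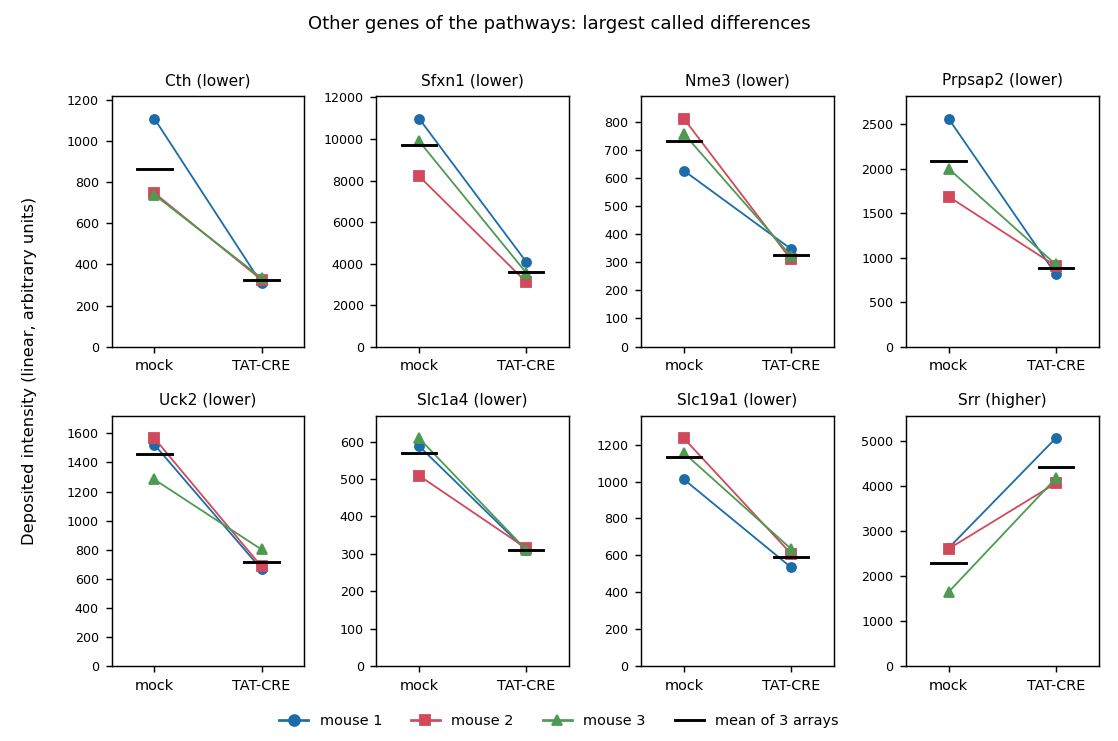
Deposited intensity (linear, axis from 0) of the 8 other pathway genes with the largest called differences, at the probe with the largest difference, with a line per mouse and a black bar at the mean of 3 arrays. The 7 that fell lie lower in TAT-CRE cells in every mouse, the mice from which they were called. Srr lies higher, by 2.01-fold in the fit.

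Because Tk1, Tyms, Rrm1, Rrm2 and Dut are expressed with DNA synthesis, 43 other S phase genes were read beside them. Of their 63 tested probes 2 fell and 1 rose (3.17% and 1.59%), fewer than the 7.14% and 6.55% of all tested probes. The median over the 63 was -0.09, with differences between -0.79 and 1.17. The 3 calls were at Mcm5 (-0.79), a helicase subunit, Mcm10 (-0.71), a replication factor, and Rpa2 (1.17), a subunit of the single-strand binding protein. All were named after their values were seen (limma adjusted p = 0.00931, 0.0164 and 0.000369). The rise of Rpa2 was at its dimmest probe, of mean intensity 271 in mock and 491 in TAT-CRE cells, and its 2 brighter probes differed by -0.11 and -0.12 (adjusted p = 0.777 and 0.770). The brighter tested probe of Mcm10 differed by -0.28 (adjusted p = 0.357). The calls of Mcm5 and Mcm10 were each lost when array TAT-CRE 2 or 3 was left out (adjusted p = 0.0536 to 0.0766), that of Mcm5 without mouse 3 (0.0772) and that of Mcm10 without mouse 1 (0.0949) or TAT-CRE 1 (0.0641). Whether the share of cells in S phase took part in the difference of Tk1 was not tested.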

How the data were processed

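RNA of 3 mock and 3 TAT-CRE samples was measured on Illumina bead arrays. Per the submitters' processing notes, GenomeStudio 1.8 was used. The deposited values are linear intensities, which the authors had quantile normalized (sorted columns differ by at most 2.1) without subtracting background (medians 161.4 to 161.5). A second deposited table has 12 columns that the labels tie to no sample, and none was used. In R 4.3.3, limma 3.58.1 corrected the intensities for background by normexp with an offset of 16, then quantile normalized them and took log2. The background threshold of an array was the 95th percentile of 1504 olfactory and vomeronasal receptor probes, and 19240 probes above it on at least 3 of 6 arrays were tested. Fold sizes rest on the background correction.

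Probes were named from GEO's platform annotation (34885 with 1 gene, 18 with several, 10378 with none). The test was limma's (lmFit, eBayes; two-sided), TAT-CRE against mock, with the mouse as a block and Benjamini-Hochberg adjustment over all tested probes, called at 0.05. Its SEs and confidence intervals use a variance per probe that limma draws towards a value common to all tested probes. The pairing comes from the labels, which split each spleen. Deviations from group means correlated within mice 1, 2 and 3 at 0.119, 0.0255 and 0.0539. Fits without 1 mouse kept the block, and fits without 1 array had none, since its partner would carry no information. An "at least" fold sets the brighter group's mean log2 deposited intensity against the dim group's mean of, per array, the smallest value among probes over the threshold or the probe's own if higher.

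The listed genes, the pathway, S phase and marker lists and the motifs were chosen with earlier results of these data known. Named were all listed genes, the 8 other pathway genes with the largest called differences, Yy1, and genes said to be named after their values were seen. The procedure was tested on simulated data. Python 3.11.15 with matplotlib 3.10.9 drew the plots.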

Additional observations from a re-analysis of the deposited data

How the results depend on the processing

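Among all probes, 2635 were called with the mouse as a block and 2417 without it (no replicate block), 2321 of them in both fits. The listed genes then had 13 probes called lower in place of 14, the lost one being that of Umps, and no other call of theirs changed. With no filter on dim probes, 1082 probes were called, and of the listed genes' probes 8 lower and 0 higher in limma. Over the fits that left out 1 mouse or 1 array, the calls ranged from 1165 to 2597 in all, from 8 to 14 lower and from 0 to 2 higher among the listed genes' probes. Genes of the list with a probe called lower numbered between 6 and 12 under the alternatives run. The 15 called probes kept their direction in all 238 refits and their call in 198. The refits reuse the arrays from which these probes were called, so a kept direction adds no independent support. Aldh1l2 (its brighter probes), the dimmer Mthfd2 probe and both Tk1 probes kept their calls in every refit that tested them. The second Aldh1l2 probe and the dimmer Shmt2 probe were each above background on 1 TAT-CRE array. Neither was tested where all 6 arrays had to be above background. The cause of the lost calls was not tested. Dim probes are limited by the signal over background, and a probe that failed the test may still differ.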
